A study of Homo sapiens with 6 samples.

Results

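The genes described here encode the machinery that brings proteins into mitochondria and folds them there, a list of 40 genes taken by symbol from the deposited count table: the TOM, SAM, TIM23 and TIM22 complexes, the small TIM chaperones, the import motor, the presequence peptidase, the matrix chaperones and 4 quality-control protease genes. All 40 were among the 65746 genes of that table, 39 had counts, and the same 39 were among the 11525 genes tested. TOMM6 is listed at 0 in every library; exons of other genes, among them AL365205.1 on the same strand, cover 100% of its exon bases, so that the 0 cannot be read as absence of its RNA. RNA came from SU-DHL-8 cells, a human line of diffuse large B-cell lymphoma with a wild-type genotype in the labels, cultured in medium with serum. One group of 3 libraries came from cells given 15 µM beta-sitosterol, a plant sterol, for 24 h, and the other 3 came from cells given an equal amount of the solvent DMSO for 24 h. Both groups are this 1 line, and the labels call the libraries replicate experiments, so the p-values measure the spread between these samples only. The comparison asks which of the import genes had different RNA levels after the sterol.

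Most mitochondrial proteins are made in the cytosol as precursors. They pass the outer membrane through the TOM channel, and then either enter the inner membrane or matrix through the TIM23 complex, reach the inner membrane through the small TIM chaperones and the TIM22 complex, or are built into the outer membrane by the SAM complex. A motor around the chaperone mtHSP70 pulls matrix proteins in, a peptidase cuts off their presequence, the HSP60 and HSP10 chamber folds them, and matrix and inner-membrane proteases degrade those that fail.

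Library totals were 29359951, 26453101 and 27839421 counts after beta-sitosterol and 33536498, 31314104 and 35565163 with DMSO. Over all tested genes DMSO replicate 2 stood apart: its correlations with the other DMSO libraries, on log2 CPM (counts per 1000000 counts of the TMM-scaled library), were 0.972 and 0.982, against 0.991 between those libraries and 0.994 between each pair of treated libraries. It was the lowest of the DMSO libraries for 25 of the 39 genes (64.1%, against 41.4% of all tested genes) and the highest for 10 (25.6%, against 40.4%). Results are therefore given with and without it, and its part in them was otherwise not tested. All 8 B lymphocyte markers had counts, with a summed level of 1930 to 2586 CPM under DMSO and 2305 to 2468 CPM after treatment. The 8 T lymphocyte markers summed to at most 4.55 CPM in any library, with CD3E, CD3G and CD2 at 0, and the 6 myeloid markers to at most 8.4 CPM, with FCGR3A and S100A8 at 0. The 4 epithelial markers summed to at most 0.909 CPM and the 4 fibroblast markers to at most 1.13 CPM, with DCN at 0. In RNA from whole cultures, fewer cells of a type and less RNA per cell cannot be told apart.

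Most import genes did not pass the test, and the 10 that did (against 40.8% of all tested genes) were spread over the roles. Of the 39, 9 rose (against 19% of all tested genes): DNAJC19 and TIMM44 of the import motor, TIMM17B of the TIM23 channel, TIMMDC1, the small TIMs TIMM13 and TIMM9, SAMM50, PMPCB and CLPX. Only TOMM40, which encodes the outer membrane channel itself, fell (1 of 39, against 21.8% of all tested genes), and 29 did not pass the threshold, an edgeR adjusted p of 0.05 over all tested genes. In this fit the share that rose was thus close to the background and the share that fell was below it. With the trend of each library on exon length removed and DMSO replicate 2 left out, 13 rose (background 27.1%) and 10 fell (background 28%). The 3 treated values lay above all 3 DMSO values for 18 of the 39 genes (background 27% of genes) and below them for 1 (background 29.1%), 19 in all (background 56.1%).

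The fold changes of the 39 genes ran from -0.61 to 1.49 on the log2 scale with a median of 0.21, beside a median of -0.04 for all tested genes. Their middle 50% lay between -0.08 and 0.35, where all tested genes spanned -0.46 to 0.41, and 30 of 39 (76.9%) changed by less than 0.5 in either direction, against 55.4% of all tested genes. The value was positive for 27 genes and negative for 12. Without DMSO replicate 2 the median was 0.12, and with the trend of each library on exon length removed it was -0.03, so the sign of the median depends on that step. The median SD of log2 CPM of the 39 genes was 0.29 among the DMSO libraries, 0.12 among those without replicate 2 and 0.05 among the treated libraries.

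**Figure D1:**
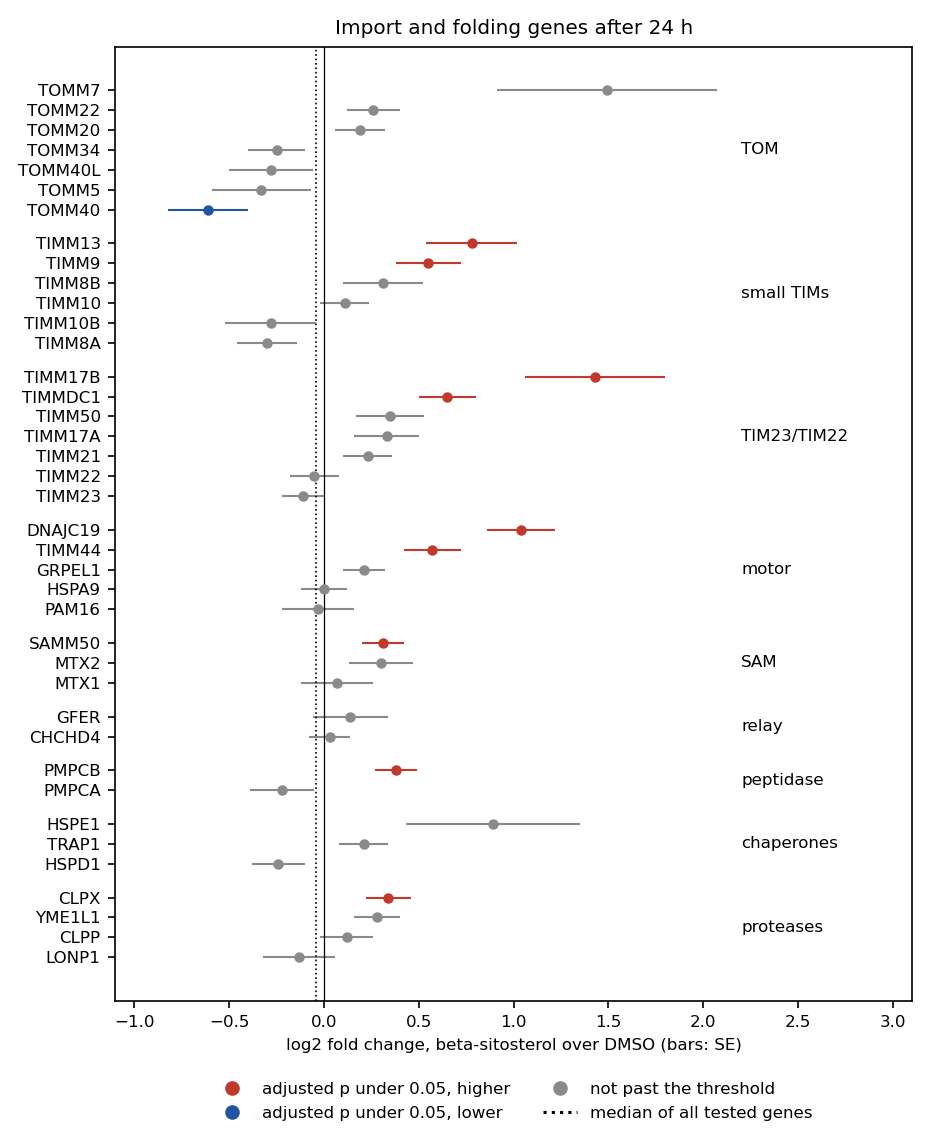
Log2 fold change of beta-sitosterol over DMSO for the 39 tested import and folding genes, grouped by role, with bars of 1 standard error; red and blue mark genes past an adjusted p of 0.05 (higher, lower) and the dotted line marks the median of all tested genes. The 9 red points are spread over 6 of the roles, and TOMM40 is the single blue point.

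Which genes passed depended on which libraries were in the fit. Without DMSO replicate 2, 13 rose (background 26.4%) and 5 fell (background 30.3%); the 9 and the 1 above stayed among them, and TOMM7, HSPE1, TRAP1 and YME1L1 (higher) and TOMM40L, TIMM8A, PMPCA and LONP1 (lower) were added. Without DMSO replicate 1, 5 rose (background 15.2%) and 0 fell (17.4%), and without DMSO replicate 3, 9 rose (21.9%) and 0 fell (22%). Leaving out treated replicate 1, 2 or 3 left 3, 3 and 2 genes higher (background 12.8%, 12.7% and 12.8%) and 0 lower (13.7%, 13.5% and 14.1%) by edgeR. At an unadjusted p under 0.05, 0 genes were lower without DMSO replicate 1 and 1 gene in each of the other 4 fits that called 0. DNAJC19 and TIMMDC1 were the only genes that rose in all 6 of these fits by edgeR, with adjusted p-values of 1.68e-05 to 0.0156 and 3.45e-04 to 0.0495. Among these fits TOMM40 fell only with DMSO replicate 2 left out, and its edgeR adjusted p was 0.118 to 0.136 in the other 5. On the deposited TPM as log2(TPM + 1) with limma, 0 of the 39 passed in either direction, beside 6.19% of all tested genes higher and 19.3% lower, and at an unadjusted p under 0.05, 2 were higher and 3 lower.

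**Figure D2:**
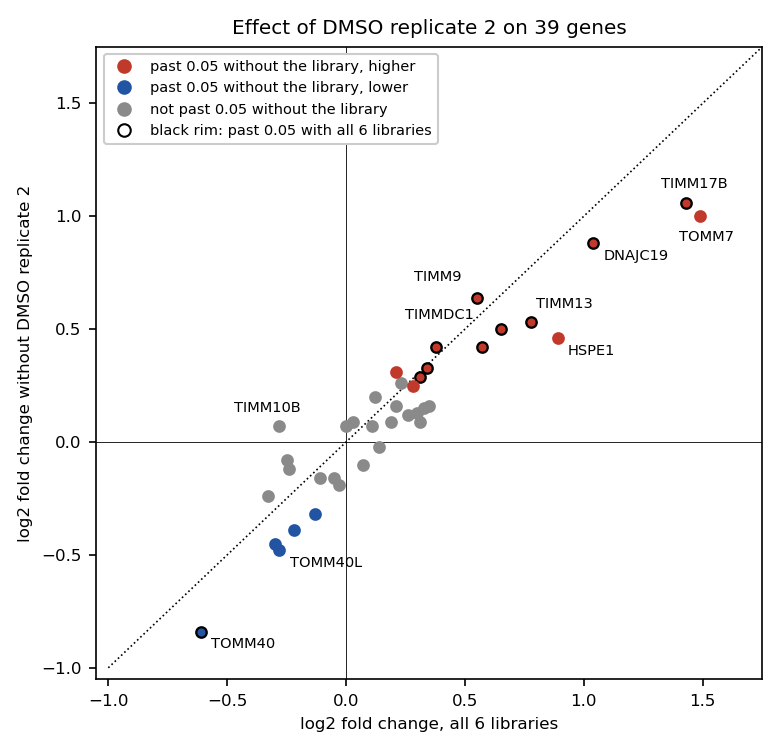
Log2 fold change of each of the 39 genes with all 6 libraries (horizontal axis) against the fold change without DMSO replicate 2 (vertical axis); the dotted diagonal marks equal values. TOMM7, TIMM17B and HSPE1 lie below the diagonal and TOMM40 and TOMM40L lie below it on the negative side, while TIMM10B is at -0.28 with the library and 0.07 without it.

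The TOM complex gave the list its largest and its lowest fold change. TOMM40, the beta-barrel pore that nearly all precursors cross, was at 327, 212 and 405 CPM in DMSO replicates 1, 2 and 3 and at 204, 204 and 208 CPM after beta-sitosterol. The treated libraries were almost equal to one another and to DMSO replicate 2, and lay below all 3 DMSO libraries. The fall was 1.53-fold (log2 -0.61 ± 0.21, SE; edgeR adjusted p = 0.0458), and without DMSO replicate 2 it was larger (-0.84 ± 0.09; edgeR adjusted p = 2.31e-06). The gene lies at chr19:44891254-44903689 (GRCh38). TOMM7, a small subunit that helps assemble the complex (chr7:22812974-22822849), was at 90.7, 13.1 and 100.0 CPM under DMSO and at 175, 188 and 209 CPM after treatment. All treated values lay above all DMSO values, and DMSO replicate 2 lay far below the other DMSO libraries. With all libraries the difference was 1.49 ± 0.58 and missed the threshold (edgeR adjusted p = 0.0719); without replicate 2 TOMM7 rose by 1.0 ± 0.10 (edgeR adjusted p = 8.27e-07). The signs of TOMM40 and TOMM7 were opposite with and without that library.

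The stretches upstream of these 2 genes are shown because both hold the site of NRF1, a transcription factor of mitochondrial genes. A role of NRF1 in the changes of these genes was not tested. Capitals mark that site, and the letters are RefSeq's (GRCh38.p14), cut where an annotated exon begins. TOMM40 is given as chr19:44891004-44891219 (plus strand) and TOMM7 as chr7:22822853-22823099 (minus strand).
TOMM40: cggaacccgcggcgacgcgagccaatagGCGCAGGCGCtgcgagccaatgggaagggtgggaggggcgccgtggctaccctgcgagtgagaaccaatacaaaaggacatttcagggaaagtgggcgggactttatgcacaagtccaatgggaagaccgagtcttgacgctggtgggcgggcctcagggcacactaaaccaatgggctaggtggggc
TOMM7: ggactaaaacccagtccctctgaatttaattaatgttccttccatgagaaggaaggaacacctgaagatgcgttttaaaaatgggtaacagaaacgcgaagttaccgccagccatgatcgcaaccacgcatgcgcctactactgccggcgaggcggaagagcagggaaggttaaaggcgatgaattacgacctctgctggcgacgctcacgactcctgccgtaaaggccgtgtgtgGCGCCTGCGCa

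The receptors differed less. TOMM20, the receptor for presequences, was at 225, 171 and 200 CPM under DMSO and 228, 232 and 221 CPM after treatment (0.19 ± 0.13; edgeR adjusted p = 0.253), and TOMM22, the central receptor, was at 121, 87.5 and 116 CPM and 129, 131 and 127 CPM (0.26 ± 0.14; edgeR adjusted p = 0.18). For TOMM22 every treated value lay above every DMSO value, and for TOMM20 the ranges overlapped. TOMM34, a cytosolic co-chaperone of precursors, was at 130, 186 and 137 CPM under DMSO and 120, 126 and 135 CPM after treatment (-0.25 ± 0.15; edgeR adjusted p = 0.231), and here DMSO replicate 2 was the highest library. The channel paralogue TOMM40L had a difference of -0.28 ± 0.22 (edgeR adjusted p = 0.334), and fell without DMSO replicate 2 (-0.48 ± 0.13; edgeR adjusted p = 0.00676). TOMM5, a small subunit, was low, at 1.85 to 3.45 CPM over all libraries. Exons of other genes cover 64.6% of its coding bases, so this level is uncertain where the counting could split its reads.

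The small TIM chaperones ferry hydrophobic precursors across the intermembrane space, and 2 of the 6 genes rose. TIMM13, which pairs with TIMM8A (chr19:2425625-2427586), was at 146, 86.9 and 187 CPM under DMSO and 250, 229 and 244 CPM after treatment. It was 1.72-fold higher (0.78 ± 0.24; edgeR adjusted p = 0.0317), with no overlap of the groups. TIMM9, which pairs with TIMM10 (chr14:58408494-58427531), was at 16.5, 16.6 and 11.1 CPM under DMSO and 21.7, 22.1 and 21.3 CPM after treatment, 1.47-fold higher (0.55 ± 0.17; edgeR adjusted p = 0.0328). Both calls were lost with the exon length trend removed (0.46 ± 0.20, adjusted p = 0.095, and 0.04 ± 0.22, adjusted p = 0.89, by edgeR). With the trend on the length implied by count over TPM removed instead, TIMM9 still rose and TIMM13 did not pass. With DMSO replicate 2 left out as well, both rose under that step. Both calls were also lost without DMSO replicate 1 (edgeR adjusted p = 0.0906 for TIMM13 and 0.0516 for TIMM9) and without each treated replicate (0.0712 to 0.095 and 0.0901 to 0.105). Exons of other genes cover 28.9% of the exon bases of TIMM13 and 30.5% of those of TIMM9.

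Their partners did not pass. TIMM8A was at 39.2, 26.3 and 34.8 CPM under DMSO and 27.5, 27.5 and 26.7 CPM after treatment (-0.30 ± 0.16; edgeR adjusted p = 0.171), and it fell without DMSO replicate 2 (-0.45 ± 0.11; edgeR adjusted p = 0.00296). Its paralogue TIMM8B, of which 32.3% of exon bases overlap other genes, was at 46.8, 28.9 and 52.3 CPM and 47.6, 56.4 and 54.5 CPM (0.31 ± 0.21; edgeR adjusted p = 0.271). TIMM10 had a difference of 0.11 ± 0.13 and TIMM10B of -0.28 ± 0.24. Exons of other genes cover 100% of the coding bases of TIMM10B. Its change and its ratio to TIMM10 below are uncertain where the counting could split its reads. For TIMM10 the value with the exon length trend removed was -0.65 ± 0.15 (edgeR adjusted p = 0.0103), so that its direction turns with that step. The partners TIMM8A and TIMM13 had opposite signs.

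At the inner membrane TIMM17B stood out from the other subunits of TIM23. TIMM17B, 1 of the 2 alternative TIM17 subunits that line the channel (chrX:48893447-48898143), was at 34.3, 12.9 and 44.4 CPM under DMSO and 82.2, 74.3 and 90.1 CPM after treatment. It was 2.69-fold higher (1.43 ± 0.37; edgeR adjusted p = 0.0159), and without the low DMSO replicate 2 the rise was 1.06 ± 0.13 (edgeR adjusted p = 4.77e-06). The call was lost without DMSO replicate 1 (edgeR adjusted p = 0.0556) and without treated replicate 3 (0.0521). TIMM17A, the other TIM17 subunit, was at 63.2, 40.6 and 60.8 CPM under DMSO and 66.4, 68.3 and 72.0 CPM after treatment (0.33 ± 0.17; edgeR adjusted p = 0.162). TIMM23, the core of the translocase, was at 91.6, 80.6 and 89.3 CPM and 80.3, 84.2 and 78.6 CPM (-0.11 ± 0.11; edgeR adjusted p = 0.48), and TIMM50, the receptor that hands precursors to it, was at 163, 102 and 162 CPM and 184, 178 and 183 CPM (0.35 ± 0.18; edgeR adjusted p = 0.151). TIMM23 has a near-identical copy, TIMM23B, with 460 to 829 counts per library, and the sources used here do not say how reads were split between them. With the exon length trend removed TIMM23 passed the threshold at -0.68 ± 0.12 (edgeR adjusted p = 0.00335).

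TIMMDC1, a TIM17-family protein that serves as an assembly factor of respiratory complex I (chr3:119498547-119525090), was at 89.9, 60.8 and 78.6 CPM under DMSO and 116, 120 and 123 CPM after treatment. It was 1.57-fold higher (0.65 ± 0.15; edgeR adjusted p = 0.0108), still rose without DMSO replicate 2 (0.50 ± 0.09; edgeR adjusted p = 3.45e-04), and rose with the exon length trend removed (0.46 ± 0.13; edgeR adjusted p = 0.0242). Exons of CD80 on the opposite strand cover 29.2% of the exon bases of TIMMDC1 and 0% of its coding bases, and the strand setting of the counting is not stated. TIMM21 had a difference of 0.23 ± 0.13 and TIMM22, the pore for carrier proteins, one of -0.05 ± 0.13. The upstream stretch of TIMMDC1, chr3:119498297-119498531 on the plus strand, is shown as the gene that rose in every fit on counts and holds a pair of ETS sites (CCGGAAG or its reverse complement, in capitals), which ETS-family factors such as GABPA can bind.
TIMMDC1: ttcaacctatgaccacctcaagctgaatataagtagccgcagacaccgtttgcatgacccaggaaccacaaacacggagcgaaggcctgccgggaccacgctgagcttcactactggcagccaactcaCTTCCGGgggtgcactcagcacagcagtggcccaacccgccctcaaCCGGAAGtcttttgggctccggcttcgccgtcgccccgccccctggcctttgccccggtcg

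In the import motor a J-protein and the scaffold rose while the chaperone itself did not pass. DNAJC19, a J-domain protein of the inner membrane (chr3:180983709-180989838), was at 23.1, 15.9 and 23.5 CPM under DMSO and 46.1, 44.4 and 38.3 CPM after treatment. It was 2.06-fold higher (1.04 ± 0.18; edgeR adjusted p = 0.00228), the smallest adjusted p of the 39 genes, and the groups did not overlap. Without DMSO replicate 2 the rise was 0.88 ± 0.12 (edgeR adjusted p = 1.68e-05) and with the exon length trend removed 0.97 ± 0.16 (edgeR adjusted p = 0.00235). TIMM44, which anchors the motor to the channel (chr19:7926718-7943666), was at 166, 126 and 185 CPM under DMSO and 238, 235 and 235 CPM after treatment, 1.49-fold higher (0.57 ± 0.15; edgeR adjusted p = 0.0162). Its treated values were nearly equal and lay above all DMSO values; without treated replicate 1, 2 or 3 the edgeR adjusted p was 0.0646, 0.0608 and 0.0604.

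HSPA9, the mtHSP70 of the motor, was at 783, 855 and 695 CPM under DMSO and 764, 794 and 781 CPM after treatment, a difference of 0.00 ± 0.12 (edgeR adjusted p = 0.983). Its treated values lay inside the DMSO range. GRPEL1, its nucleotide exchange factor, was at 80.0, 70.4 and 75.7 CPM and 87.3, 87.9 and 86.2 CPM (0.21 ± 0.11; edgeR adjusted p = 0.159), with no overlap between groups. PAM16, which restrains the J-proteins of the motor, was at 11.2, 8.69 and 14.0 CPM and 10.1, 10.9 and 12.2 CPM (-0.03 ± 0.19; edgeR adjusted p = 0.91). Exons of other genes cover 55.5% of the coding bases of PAM16, among them the readthrough CORO7-PAM16, which is listed at 0.

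**Figure D3:**
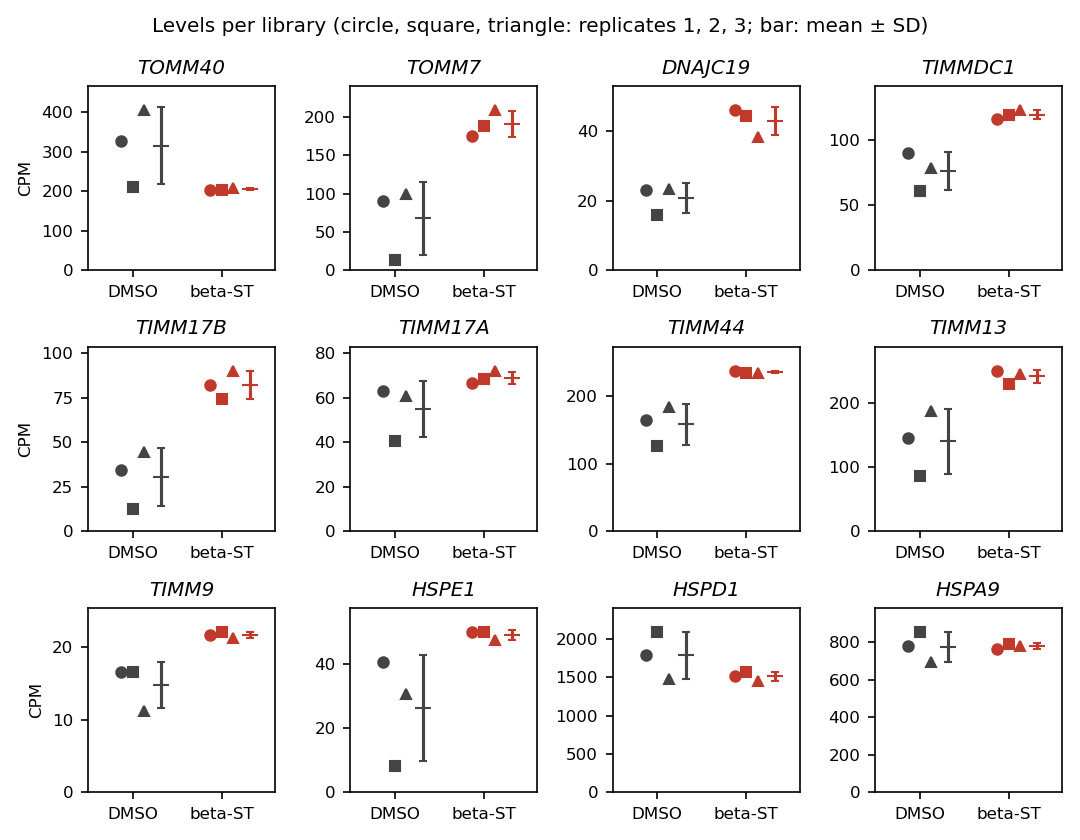
Level in CPM of 12 of the genes in each library (circle, square and triangle for replicates 1, 2 and 3; dark for DMSO, red for beta-sitosterol), with the mean and SD of each group beside the points. Each vertical axis starts at 0, the treated points lie close together in every panel, and DMSO replicate 2 is the lowest DMSO point for TOMM7, TIMM17B and HSPE1 and the highest for HSPD1 and HSPA9.

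Of the outer-membrane assembly genes, SAMM50, the barrel that inserts other barrels such as TOMM40, was at 55.4, 53.0 and 54.3 CPM under DMSO and 64.5, 70.3 and 67.4 CPM after treatment. It was 1.24-fold higher (0.31 ± 0.11; edgeR adjusted p = 0.0463), the smallest change among the genes that rose, in a gene whose DMSO libraries nearly coincided. Without DMSO replicate 1 its edgeR adjusted p was 0.0819 and without single treated replicates 0.121 to 0.202. The metaxins of the same complex did not pass: MTX1 was at 34.7, 27.1 and 46.6 CPM and 35.7, 38.5 and 39.9 CPM (0.07 ± 0.19; edgeR adjusted p = 0.782), and MTX2 was at 45.4, 30.1 and 43.1 CPM and 47.2, 50.5 and 48.7 CPM (0.30 ± 0.17; edgeR adjusted p = 0.176). SAMM50 and TOMM40 therefore passed the threshold with opposite signs.

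Neither gene of the disulfide relay, which oxidises small proteins of the intermembrane space and so traps them there, passed. CHCHD4, the receptor that makes the disulfides, was at 42.2, 48.0 and 42.6 CPM under DMSO and 44.2, 46.8 and 44.6 CPM after treatment (0.03 ± 0.11; edgeR adjusted p = 0.852). GFER, the oxidase that regenerates it, was at 20.1, 15.5 and 25.2 CPM and 24.5, 18.5 and 24.2 CPM (0.14 ± 0.20; edgeR adjusted p = 0.59). For both the treated libraries lay within the range of the DMSO libraries.

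Of the subunits of the presequence peptidase 1 rose. PMPCB, the catalytic subunit, was at 139, 145 and 125 CPM under DMSO and 169, 184 and 180 CPM after treatment, 1.3-fold higher (0.38 ± 0.11; edgeR adjusted p = 0.0267). PMPCA, the subunit that recognises the presequence, was at 173, 124 and 192 CPM and 134, 139 and 146 CPM (-0.22 ± 0.17; edgeR adjusted p = 0.311), and it fell without DMSO replicate 2 (-0.39 ± 0.09; edgeR adjusted p = 0.0014). The treated values of PMPCB lay above all DMSO values, and those of PMPCA lay below DMSO replicates 1 and 3 and above replicate 2. The PMPCB call was lost without DMSO replicate 1 (edgeR adjusted p = 0.0582) and without each treated replicate (0.0785 to 0.13).

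None of the 3 matrix chaperones passed with all libraries. HSPD1, the HSP60 subunit of the folding chamber, was at 1782, 2085 and 1478 CPM under DMSO and 1514, 1563 and 1451 CPM after treatment (-0.24 ± 0.14; edgeR adjusted p = 0.21). HSPE1, the HSP10 lid of that chamber, was at 40.3, 8.06 and 30.4 CPM and 49.8, 49.6 and 47.2 CPM (0.89 ± 0.46; edgeR adjusted p = 0.15). All treated values of HSPE1 lay above all DMSO values, with DMSO replicate 2 far below the rest, and without that library HSPE1 rose by 0.46 ± 0.12 (edgeR adjusted p = 0.00536). With the exon length trend removed as well, that call was lost (0.19 ± 0.12, edgeR adjusted p = 0.218). With the trend on the length implied by count over TPM removed instead, HSPE1 kept that call. TRAP1, the HSP90 of mitochondria, was at 300.3, 391 and 339 CPM and 393, 381 and 421 CPM (0.21 ± 0.13; edgeR adjusted p = 0.206); it rose without DMSO replicate 2 (0.31 ± 0.09; edgeR adjusted p = 0.00605), and with it the highest DMSO value lay within the treated range.

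HSPD1 and HSPE1 lie head to head, with 104 bases between their RefSeq starts. The NRF1 site between them is shown with 10 bases on either side (chr2:197500322-197500351, plus strand) because it lies in the promoter windows of both genes. Annotated exons cover all 104 of these bases, so this stretch, unlike the others shown, was not cut at an exon.
HSPD1-HSPE1: tggggcgagcGCGCCTGCGCgctgggtgat
Exons of other genes cover 47.9% of the coding bases of HSPE1, and the readthrough HSPE1-MOB4 is listed at 0, so the level of HSPE1 is uncertain where the counting could split its reads.

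Among the quality-control proteases CLPX, the unfoldase that feeds the CLPP chamber, was at 51.5, 45.7 and 42.4 CPM under DMSO and 57.8, 58.7 and 60.5 CPM after treatment. It was 1.27-fold higher (0.34 ± 0.12; edgeR adjusted p = 0.0484), and without single treated replicates the edgeR adjusted p was 0.139 to 0.168. CLPP, the peptidase of the pair, was at 117, 160 and 153 CPM and 160, 150 and 157 CPM (0.12 ± 0.14; edgeR adjusted p = 0.521), so the treated values lay near the upper end of the DMSO range. LONP1, the main soluble matrix protease, was at 496, 375 and 663 CPM and 478, 458 and 466 CPM (-0.13 ± 0.19; edgeR adjusted p = 0.613), and fell without DMSO replicate 2 (-0.32 ± 0.10; edgeR adjusted p = 0.0158), a call lost with the exon length trend removed as well (-0.28 ± 0.13; edgeR adjusted p = 0.0792). YME1L1, the inner-membrane protease that faces the intermembrane space, was at 192, 163 and 158 CPM and 209, 213 and 201 CPM (0.28 ± 0.12; edgeR adjusted p = 0.0858). Its groups did not overlap, and it rose without DMSO replicate 2 (0.25 ± 0.09; edgeR adjusted p = 0.0372).

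To compare levels between genes, CPM was divided by the length in kb of each gene's merged exons. Under DMSO HSPD1 stood far above the rest at 420 ± 71.5 CPM per kb (SD, n = 3), followed by LONP1 at 101 ± 28.5, HSPA9 at 94.2 ± 9.70 and TOMM40 at 87.1 ± 26.9 CPM per kb. The last 3 of these overlapped one another within their SDs, as did TIMM10, TOMM34, TIMM23 and TIMM13 below them at 71.0 to 74.4 CPM per kb. At the low end DNAJC19 was at 5.80 ± 1.19, PAM16 at 4.75 ± 1.12 and TOMM5 at 0.843 ± 0.105 CPM per kb. Exons of other genes cover 55.5% of the coding bases of PAM16 and 64.6% of those of TOMM5. After beta-sitosterol HSPD1 was still first at 356 ± 13.2 CPM per kb, and TIMM13 at 122 ± 5.29 and TOMM7 at 109 ± 9.84 CPM per kb came next, from places 8 and 13 under DMSO. TOMM40 went from place 4 to place 13, TIMM17B from 28 to 18 and DNAJC19 from 37 to 28.

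Ratios of paralogues and partners were taken within each library, where no scaling between libraries enters. A trend of a library on exon length can still enter where the genes of a pair differ in length. The log2 ratio of TIMM17A to TIMM17B was 0.88, 1.66 and 0.46 under DMSO and -0.31, -0.12 and -0.32 after treatment, so TIMM17A had more counts in every DMSO library and TIMM17B in every treated library. The mean ratio was 1.0 ± 0.61 (SD, n = 3) and -0.25 ± 0.11, a difference of -1.25 (exact two-sided permutation test, p = 0.1, 0.16 adjusted over 8 pairs). With 3 libraries against 3 the smallest p this test can give is 0.1, so no pair could pass.

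For TIMM8A over TIMM8B the log2 ratio was -0.26, -0.14 and -0.59 under DMSO and -0.79, -1.04 and -1.03 after treatment, a difference of -0.63 (exact permutation p = 0.1, adjusted 0.16). TOMM40 over TOMM40L held to 3.68, 3.63 and 3.72 under DMSO, DMSO replicate 2 included, and was 3.35, 3.52 and 3.19 after treatment, a difference of -0.32 (exact permutation p = 0.1, adjusted 0.16). DMSO replicate 2 lay with the other DMSO libraries in this ratio. PMPCA over PMPCB was 0.32, -0.23 and 0.63 under DMSO and -0.33, -0.40 and -0.30 after treatment, a difference of -0.58 (exact permutation p = 0.1, adjusted 0.16). HSPE1 over HSPD1 was -5.47, -8.01 and -5.60 under DMSO and -4.93, -4.98 and -4.94 after treatment, a difference of 1.41 (exact permutation p = 0.1, adjusted 0.16), which was 0.59 without DMSO replicate 2. These 5 ratios did not overlap between the groups. The other 3 did: TIMM10 over TIMM10B differed by 0.33 (exact permutation p = 0.5), CLPP over CLPX by -0.21 (p = 0.4) and MTX1 over MTX2 by -0.22 (p = 0.2). With the exon length trend removed, edgeR log2 changes of TIMM8A (3.54 kb) and TIMM8B (1.17 kb) were close, at -0.38 and -0.25. Those of HSPE1 (1.98 kb) and HSPD1 (4.25 kb) were 0.60 and -0.23. For the further pairs without overlap they were 0.25 and 1.23 (TIMM17A, TIMM17B), -0.68 and -0.39 (TOMM40, TOMM40L) and -0.08 and 0.42 (PMPCA, PMPCB).

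**Figure D4:**
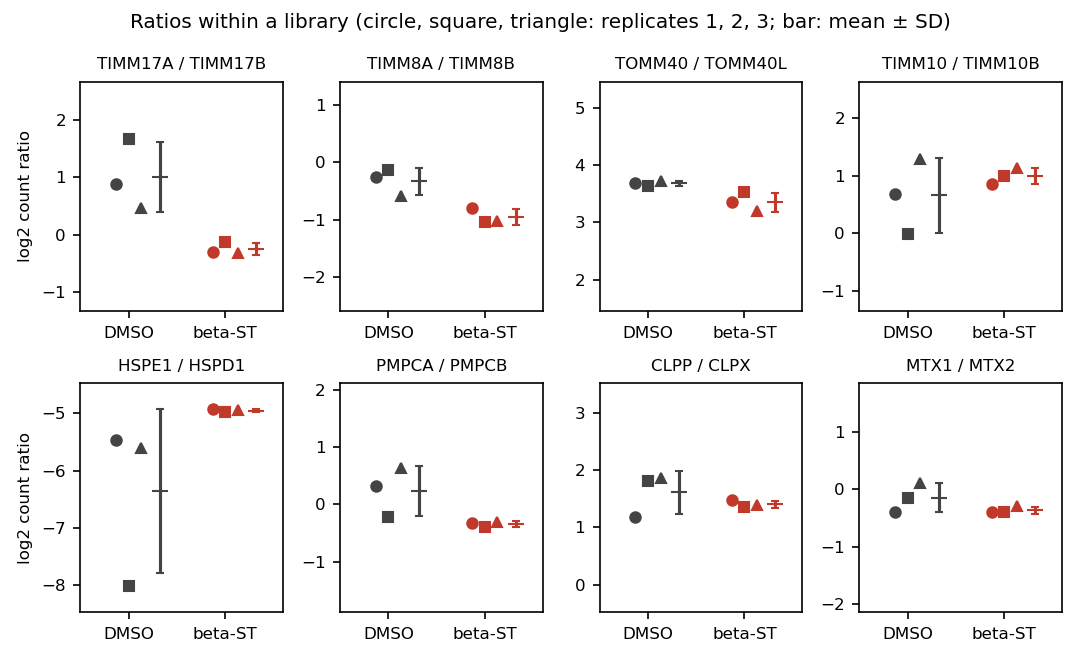
Log2 ratio of the counts of 8 pairs of paralogues or partners within each library (circle, square and triangle for replicates 1, 2 and 3), with the mean and SD of each group; every panel spans the same 4 log2 units. The TIMM17A over TIMM17B ratio changes sign between the groups, the TOMM40 over TOMM40L ratio is nearly constant under DMSO at 3.63 to 3.72, and the HSPE1 over HSPD1 ratio of DMSO replicate 2 is -8.01.

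Other genes of the same pathway were read from 4 lists of 48 names, of which 42 genes were tested: 11 rose, 8 fell and 23 did not pass, beside 19% and 21.8% of all tested genes. Without DMSO replicate 2, 14 rose (background 26.4%) and 9 fell (background 30.3%) by edgeR. MTX3, DNAJC15 and MTCH1 (higher) and ESRRA (lower) were added. Of 18 other import and processing genes 6 rose, among them GRPEL2, the second exchange factor of mtHSP70 (0.82 ± 0.16; edgeR adjusted p = 0.00499), and IMMP2L, an inner-membrane peptidase subunit (1.17 ± 0.23; edgeR adjusted p = 0.00482), and 2 fell, DNAJC11 and AGK. IMMP1L, HSCB, PITRM1 and ROMO1 were the other 4 that rose, at 0.66 to 1.39. TOMM70, the receptor for carrier proteins, was at 107 ± 10.4 CPM (SD, n = 3) under DMSO and 111 ± 5.04 CPM after treatment (0.06 ± 0.12; edgeR adjusted p = 0.728).

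Of 9 further quality-control genes HTRA2 and STOML2 rose and CLPB fell. CLPB, a disaggregase of the intermembrane space, went from 64.9 ± 3.49 to 37.8 ± 1.19 CPM (SD, n = 3 each), a log2 change of -0.78 ± 0.11 (edgeR adjusted p = 0.00108) that was -0.76 without DMSO replicate 2. Of 4 cristae junction genes APOO and CHCHD3 rose and APOOL fell. PHB1, TIMM29, MICOS10 and MICOS13 are listed at 0, which need not mean that they lack RNA: exons of other genes cover all coding bases of MICOS10 (24.9% of those of PHB1 and 0% of those of TIMM29 and MICOS13), and the annotation used for counting is not stated. With single libraries left out, GRPEL2, IMMP2L, HSCB, PITRM1, CLPB and APOO kept their edgeR calls in all 6 fits, and each of the other genes named here as changed lost its call in at least 1.

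Of 11 regulators of mitochondrial stress and biogenesis 1 rose and 4 fell with all libraries. ESRRA did not pass with all libraries (-0.45 ± 0.42, edgeR adjusted p = 0.423). It fell without DMSO replicate 2 (-0.86 ± 0.12, edgeR adjusted p = 2.3e-05). TFAM, the packaging factor of mitochondrial DNA, rose by 0.51 ± 0.14 (edgeR adjusted p = 0.0212), a call lost without treated replicate 1 or 2 (0.0863 and 0.101). NRF1, the factor whose site is shown above, went from 46.1 ± 5.12 to 27.3 ± 1.39 CPM (SD, n = 3 each), a log2 change of -0.75 ± 0.13 (edgeR adjusted p = 0.00257). ATF5, a factor of the mitochondrial unfolded protein response, went from 707 ± 78.9 to 487 ± 12.1 CPM (-0.54 ± 0.12; edgeR adjusted p = 0.00725), and MYC fell by 1.52 ± 0.21 (edgeR adjusted p = 8.74e-04) and YY1 by 0.48 ± 0.10 (edgeR adjusted p = 0.007). The YY1 call was lost without treated replicate 2 or 3 (edgeR adjusted p = 0.0537 and 0.0551) and with the exon length trend removed (0.106), whereas NRF1, ATF5 and MYC kept theirs in all 6 leave-out fits. ATF4 and DDIT3, of the integrated stress response, did not pass, at -0.06 ± 0.12 (edgeR adjusted p = 0.725) and 0.36 ± 0.17 (edgeR adjusted p = 0.113).

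Promoter windows of 250 bases before to 50 after the start (RefSeq, GRCh38.p14) were found for 35 of the 40 genes and searched on both strands. The NRF1 site (GCGC, any base, then TGCGC) was in 9 of 35 (25.7%), against 12.4% of the windows of 9086 tested genes and 6.28% of all 27305 windows. It stood at TOMM7, TOMM20, TOMM34, TOMM40, PAM16, CHCHD4, HSPD1, HSPE1 and CLPX, of which 1 rose (CLPX), 1 fell (TOMM40) and 7 did not pass. HSPD1 and HSPE1 share 1 NRF1 site, counted in both windows. The ETS site, CCGGAAG, was in 12 of 35 (34.3%, against 19.8% of tested genes), of which TIMMDC1, TIMM13 and PMPCB rose, TOMM20, TOMM22, TOMM34, TIMM10, TIMM10B, TIMM23, MTX2 and LONP1 did not pass, and TOMM6 was not tested. The E-box CACGTG that MYC can bind was in 7 of 35 (20%, against 10.4%). These were TOMM20, TIMM8A, TIMM10, HSPA9, HSPD1, HSPE1 and LONP1, and none of them passed with all libraries. HSPD1 and HSPE1 share 1 E-box, counted in both windows. The heat shock element, GAANNTTC or TTCNNGAA, was in 2 windows (5.71%, against 10.1%), those of TIMM10 and HSPA9. The cyclic AMP element TGACGTCA was in 1, that of TRAP1 (2.86%, against 3.25%), and the TATA box TATAAA in 0 of 35, against 5.44% of tested genes. In the TIMM10 window the heat shock element overlaps 1 of the ETS sites, and the windows of TIMM17B and DNAJC19 held none of these letters. A match is a description of the letters only.

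Exon length moved with the fold changes over all tested genes: the correlation across 11519 genes of log2 exon length with log2 fold change was -0.28 (Pearson; Spearman -0.30), and with the log2 ratio of DMSO replicate 2 to the other DMSO libraries it was 0.30 (Spearman 0.29). Across the 39 import genes the same values were -0.17 (Spearman -0.11) and 0.22 (Spearman 0.19). With the exon length trend removed, the correlation of length with fold change across the 39 was 0.31 (Spearman 0.33). Across all tested genes it was then -0.00 (Spearman 0.02), so that step left a positive relation with length in the 39. Genes share their libraries here and are not independent replicates. With the exon length trend of each library removed, 8 import genes rose (background 19.6%) and 4 fell (background 19.7%), and with DMSO replicate 2 also left out 13 rose (background 27.1%) and 10 fell (background 28%). With all libraries CLPX, DNAJC19, PMPCB, SAMM50, TIMM17B, TIMM44 and TIMMDC1 remained among those that rose, YME1L1 was added, and TOMM40, TOMM34, TIMM10 and TIMM23 were those that fell.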

How the data were processed

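Values came from the authors' gene counts, deposited as whole numbers, and from a matching deposited TPM table. Tools named, without roles, per the submitters' processing notes are STAR 2.7.10, StringTie 2.2.1, featureCounts 2.0.1 and fastp 0.23.2, with GRCh38/hg38 as build. Annotation, strand setting and the handling of reads with several hits are not stated there. Of 65807 rows 61 repeated symbols were dropped. Counts were tested with edgeR 4.0.16 in R 4.3.3 (quasi-likelihood, TMM factors, filterByExpr, two-sided, Benjamini-Hochberg over 11525 genes, threshold 0.05). The script was tested on simulated data. Samples were grouped by the labels' treatment. CPM is the count per 1000000 of the library total of tested genes scaled by its TMM factor. SEs of fold changes come from the same fit. Depth ran from 26453101 to 35565163 counts per library.

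Levels between genes were planned on the deposited TPM. In 95.7% of 10064 genes the count divided by TPM lay within 1% of the summed length of all the gene's GENCODE v29 transcripts (1.7% for merged exons), so that TPM is not per length of a gene's exons; CPM per kb of merged exons was used. The listed TPM sum to 39.54% of 1000000 in DMSO replicate 2 and 57.02% to 69.2% in the other libraries. Gene coordinates are from GENCODE v29 (GRCh38) and promoter letters from RefSeq (GRCh38.p14).

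The 40 genes, the other lists and the tests were chosen with earlier results of these data known. All 40 genes are accounted for; values in every library are given for up to 4 genes of each role with the smallest p and for 10 genes of central place. The labels do not say that replicate numbers mark a shared batch, so the fit has no block. Correlations of deviations were 0.0388, 0.101 and 0.154 between same-numbered libraries of the groups and -0.141 to 0.0245 between the others. Alternatives were other scalings, filters and tests (DESeq2 1.42.0, limma 3.58.1), TPM, length trends, the block and each library left out; those on merged exon length were added after seeing the data. Protein sequences were not used here.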

Additional observations from a re-analysis of the deposited data

How the results depend on the processing

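Of the 39 genes, DNAJC19 and TIMMDC1 kept their call in every fit on counts and lost it on the TPM scales. The number of import genes that rose, 9, was 0 on log2(TPM + 1) and log2(TPM + 0.1) and 2 to 13 with single libraries left out. The number that fell, 1, was 0 with RLE factors, with a filter of 1 CPM in 3 libraries, with limma-voom and on both TPM scales, 3 with the length trend by the TPM divisor removed together with the replicate block, 7 with that trend removed and DMSO replicate 2 left out, 4 with the exon length trend removed, with or without the replicate block, 10 with it removed and DMSO replicate 2 left out, and 0 to 5 with single libraries left out. The other pathway genes that rose were 0 on both TPM scales and 5 to 14 with single libraries left out, against 11; those that fell were 5 with the exon length trend removed with the replicate block and 4 to 9 with single libraries left out, against 8. Over all genes, 713 and 691 rose on log2(TPM + 1) and log2(TPM + 0.1), against 2185, and 1593 to 3549 fell with single libraries left out, against 2512. The TPM scales moved the median of all genes from -0.04 to -0.19 and -0.26. The cause of these differences was not tested.

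Signs that turned belong to genes that did not pass with all libraries. On both TPM scales they were TOMM20 at -0.05, TIMM10 at -0.14, TIMM21 at -0.02, GRPEL1 at -0.05, HSPA9 at -0.25, MTX1 at -0.15, CHCHD4 at -0.22, GFER at -0.10, TRAP1 at -0.04 and CLPP at -0.12. With the exon length trend removed they were TOMM22 at -0.03, TIMM8B at -0.25, TIMM10 at -0.65, MTX1 at -0.05, MTX2 at -0.11, CHCHD4 at -0.40, GFER at -0.05 and CLPP at -0.17; with the replicate block added, -0.03, -0.25, -0.63, -0.02, -0.10, -0.38, -0.04 and -0.15; and with DMSO replicate 2 left out instead, -0.11, -0.36, -0.49, -0.20, -0.19, -0.23, -0.18 and -0.02. With the trend by the TPM divisor removed, TIMM10 was at -0.25, CHCHD4 at -0.18 and LONP1 at 0.05 (with the block -0.24, -0.17 and 0.11), and without DMSO replicate 2 TOMM20 was at -0.05, TOMM22 at -0.07, TIMM8B at -0.08, TIMM10 at -0.18, MTX1 at -0.14, CHCHD4 at -0.07 and GFER at -0.14. HSPA9 was at -0.01 with library totals alone. With single libraries left out TIMM10B ran from -0.45 to 0.07, TIMM22 from -0.16 to 0.07, PAM16 from -0.19 to 0.19, HSPA9 from -0.03 to 0.07, MTX1 from -0.10 to 0.34, CHCHD4 from -0.01 to 0.09, GFER from -0.02 to 0.37, LONP1 from -0.32 to 0.14 and CLPP from -0.01 to 0.21.

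With the replicate block, 9 import genes rose and 1 fell, as without it; HSPE1 (1.14; edgeR adjusted p = 0.0476) and TOMM7 were added and CLPX and SAMM50 lost. Each library correlated best with its own number, a hint from the data and not from the design. Depth limits TOMM5, at 1.85 to 3.45 CPM, and exons of other genes cover 64.6% of its coding bases.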
